A study of Homo sapiens with 18 samples.

Results

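The ADAM sheddases and their TIMP inhibitors were 10 genes, chosen by symbol: ADAM8, ADAM9, ADAM10, ADAM12, ADAM15, ADAM17, ADAM19, TIMP1, TIMP2 and TIMP3. They were 10 of the 19401 genes listed in any of 3 tables that the authors deposited, each comparing a knockout with wild type (WT). The tables were joined by Entrez ID, and all 10 were listed and tested in each table. RNA was sequenced from MCF10A, a non-tumorigenic human mammary epithelial line, and from MCF10A clones in which CBFB or RUNX1 had been deleted with CRISPR-Cas9. The 18 samples comprised CBFB KO (n = 3) with its own CBFB WT (n = 3), and RUNX1 KO1 (n = 4) and RUNX1 KO2 (n = 4) with a shared RUNX1 WT (n = 4). The genotype label of CBFB KO gives no clone number, while KO1 and KO2 are labeled apart and were taken as a clone each. Knockouts were grown from single-cell colonies, so that a difference between clones is part of every comparison. All groups were untreated, below passage 30, and grown with horse serum, insulin, EGF, hydrocortisone and cholera toxin. CBFB is the partner subunit that helps RUNX proteins bind DNA, and RUNX1 is one of those DNA-binding proteins. The comparisons addressed which transcripts change when the gene of either subunit is deleted. The study reports that RUNX1 protein was also lost in CBFB knockout cells, while CBFB protein was unaffected by RUNX1 deletion. Loss of CBFB below is therefore not loss of that subunit alone.

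ADAM proteins are membrane-anchored metalloproteases that cut other membrane proteins near the cell surface and release their outer parts, a step called ectodomain shedding. ADAM10 and ADAM17 are the best studied members. ADAM10 cuts NOTCH receptors and cadherins, and ADAM17 releases TNF and several ligands of the EGF receptor. TIMPs are small secreted proteins that block the active site of matrix metalloproteinases and, to different degrees, of ADAMs. TIMP3 is the family's inhibitor of ADAM17, and both TIMP1 and TIMP3 inhibit ADAM10. The mammary epithelium uses shedding to release EGF receptor ligands during duct growth. Enzyme activity, protein and shed fragments were not measured here, and the values below are mRNA levels only.

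For each gene the authors' tables hold a mean of normalized counts, a log2 fold change with its standard error (SE), and the adjusted p-value of DESeq2. Values per library were not analysed here, so that neither the value in each sample nor the overlap between groups can be given. Mean levels of WT and knockout were therefore worked out from the mean and the fold change of each table and carry no error of their own. The adjusted p-values measure only the spread between these samples, since nothing states that replicates were separate cultures. A gene was called changed at an adjusted p under 0.05. Confidence intervals are 95% intervals from the SE. Deletion was checked on the targeted genes, where CBFB mRNA fell by 4.88 (SE 0.14, log2) in CBFB KO. RUNX1 mRNA rose by 0.54 (SE 0.09) in KO1 and 0.46 (SE 0.13) in KO2, so that its level does not check those labels. The epithelial identity was checked on 8 markers. All were listed in the CBFB and KO1 tables and 7 in the KO2 table, where KRT14 was not listed, with means between 730 and 101688. Their levels were not constant. In CBFB KO and in KO1, 5 of 8 were called higher and 1 lower, and in KO2 1 of 7 was higher and 0 lower. Of all genes, 11.7%, 19.7% and 8.76% were called higher and 7.97%, 19.9% and 6.08% lower in CBFB KO, KO1 and KO2. KRT14 rose by 2.97 (log2) in CBFB KO and 2.95 in KO1. Of 7 fibroblast markers, 2 (COL1A1 and PDGFRA) had a mean of at least 10 in each table. Their list summed to 813 normalized counts in WT and 1043 in CBFB KO, 723 and 1017 for KO1, and 670 and 757 for KO2. COL1A1 rose in all 3 comparisons, by 1.40 (SE 0.16), 1.75 (SE 0.12) and 1.36 (SE 0.19) on the log2 scale, DCN fell from a mean level under 12, and COL3A1 was listed in none of the tables. Of 5 leukocyte markers, CD14 and CD68 had a mean of at least 10. Their list summed to 361 and 534 in the CBFB table, 271 and 355 in the KO1 table, and 262 and 348 in the KO2 table, in WT and knockout respectively, with PTPRC under 1 or not listed. All 3 endothelial markers were under 1. The part of these markers in the results below was not tested.

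The promoters of 4 members are shown, because ADAM8 rose and ADAM19 fell in every knockout and because TIMP1 and TIMP3 fell in CBFB KO. Each run is RefSeq sequence of GRCh38.p14, 5′ to 3′ on the strand of the gene, from 250 bases before to 50 bases after the annotated start. Capitals mark the RUNX motif TGTGGT or its reverse complement ACCACA.
ADAM8 (chr10:133276819-133277118, strand -): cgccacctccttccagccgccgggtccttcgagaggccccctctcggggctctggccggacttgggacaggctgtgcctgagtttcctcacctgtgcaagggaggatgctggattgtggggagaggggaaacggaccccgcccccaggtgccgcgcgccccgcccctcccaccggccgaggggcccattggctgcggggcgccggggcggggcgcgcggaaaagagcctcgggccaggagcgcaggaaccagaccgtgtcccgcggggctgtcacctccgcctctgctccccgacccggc
ADAM19 (chr5:157575726-157576025, strand -): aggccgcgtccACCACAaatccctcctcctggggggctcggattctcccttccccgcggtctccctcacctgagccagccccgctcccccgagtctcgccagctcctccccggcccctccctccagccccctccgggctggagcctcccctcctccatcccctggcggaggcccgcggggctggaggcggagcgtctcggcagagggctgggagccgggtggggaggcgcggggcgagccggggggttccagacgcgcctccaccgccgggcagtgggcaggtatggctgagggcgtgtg
TIMP1 (chrX:47582186-47582485, strand +): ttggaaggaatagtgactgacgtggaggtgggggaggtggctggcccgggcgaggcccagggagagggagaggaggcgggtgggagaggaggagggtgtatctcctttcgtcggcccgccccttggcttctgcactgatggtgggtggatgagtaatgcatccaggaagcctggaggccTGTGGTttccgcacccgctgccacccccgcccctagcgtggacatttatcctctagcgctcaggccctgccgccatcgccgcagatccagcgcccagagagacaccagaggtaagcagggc
TIMP3 (chr22:32801455-32801754, strand +): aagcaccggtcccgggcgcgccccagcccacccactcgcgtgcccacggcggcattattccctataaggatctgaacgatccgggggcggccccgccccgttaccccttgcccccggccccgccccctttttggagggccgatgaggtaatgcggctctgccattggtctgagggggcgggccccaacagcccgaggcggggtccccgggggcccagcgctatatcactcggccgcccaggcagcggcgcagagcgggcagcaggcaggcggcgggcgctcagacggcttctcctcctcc

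RefSeq windows were found for 8 of the 10 members, and ADAM9 and TIMP2 had no entry. TGTGGT on either strand was present in 2 of the 8 windows, once in ADAM19 at position -239 from the start (as ACCACA, on the opposite strand) and once in TIMP1 at position -71. Among all 27305 promoter windows of this length, 13.1% held it. The second RUNX motif searched, TGCGGT, was in 0 of the 8 windows against 7.11% of all, and either of the RUNX motifs was in 2 of 8 against 19.4%. The AP-1 motif TGANTCA was in 0 of 8 against 7.76%, and TATAAA in 0 of 8 against 12.0%. All motifs were searched on both strands. The RUNX motifs TGTGGT and TGCGGT are close variants of each other, and none of these 4 motifs contains another. The members' windows were rich in G and C. The GC content was 74.0% for ADAM8, 75.7% for ADAM19, 65.0% for TIMP1 and 72.7% for TIMP3, against a median of 58.3% over all windows. CpG dinucleotides numbered 29, 26, 16 and 31, against a median of 14.0. A match describes letters in this window and is no measurement of binding.

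ADAM15 and ADAM9 carried most of the ADAM mRNA, and TIMP1 most of the TIMP mRNA, on a scale of normalized counts per kb of the longest transcript. In CBFB WT the level per kb was 1999 for ADAM15, 1432 for ADAM9, 119 for ADAM10, 108 for ADAM17, 62.5 for ADAM8, 28.4 for ADAM19 and 8.20 for ADAM12. ADAM15 and ADAM9 together therefore stood far above the other 5, at 53.2% and 38.1% of the summed ADAM level. In the RUNX1 WT, taken from the KO1 table, the corresponding levels per kb were 2259 for ADAM15, 862 for ADAM9, 97.7 for ADAM8, 79.6 for ADAM17, 78.2 for ADAM10, 31.9 for ADAM19 and 3.17 for ADAM12. The order was the same apart from ADAM8, ADAM10 and ADAM17, which lay close together. Among the inhibitors, the CBFB WT level per kb was 6768 for TIMP1, 536 for TIMP3 and 246 for TIMP2, and the RUNX1 WT level was 5201, 435 and 237. TIMP1 thus made up 89.6% and 88.6% of the summed TIMP level. Whether neighbors in these orders differ could not be tested, because the tables hold no spread over libraries. The tables were normalized separately, so that a level in one is not on the same footing as a level in another.

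**Figure D1:**
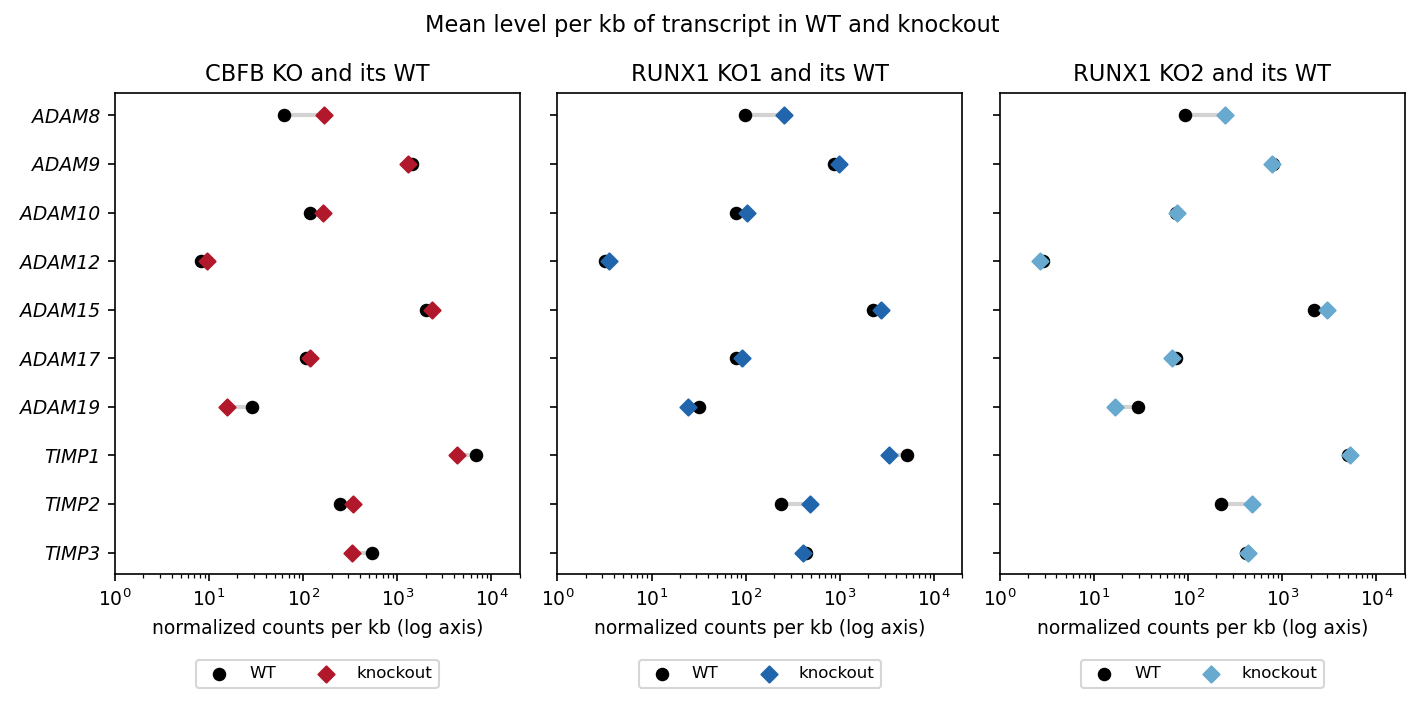
Mean level of each member in WT (black circles) and knockout (colored diamonds), in normalized counts per kb of the longest transcript on a log axis, for each of the 3 tables. ADAM15, ADAM9 and TIMP1 lie at the high end in every panel, ADAM12 lies lowest, and no error bar is drawn because the tables give no error for a level.

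Loss of CBFB changed 7 of the 10 members, 4 upward and 3 downward. ADAM8, ADAM10, ADAM15 and TIMP2 rose, while ADAM19, TIMP1 and TIMP3 fell. Across all genes tested in that table, 11.7% were called higher and 7.97% lower. Of the genes whose mean reached 100, which included 9 of the members and all those called, 22.7% were called in either direction. In bulk RNA, fewer cells of a kind and less RNA per cell cannot be told apart. KO1 had 6 members called, with ADAM8, ADAM10, ADAM15 and TIMP2 higher and ADAM19 and TIMP1 lower, where 19.7% of all genes were called higher and 19.9% lower. Of genes whose mean reached 100, 48.9% were called in KO1, and the 6 called members are read against that share with no test. KO2 had 3 members called, with ADAM8 and TIMP2 higher and ADAM19 lower, against 8.76% of all genes called higher, 6.08% lower, and 15.1% of the genes that reached a mean of 100. The median log2 fold change of the members was 0.16, 0.20 and 0.06 in CBFB KO, KO1 and KO2, beside -0.01, 0 and 0.02 over all genes tested.

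With the second condition of a fold change of at least 2, 1 member remained in CBFB KO (ADAM8), against 2.98% of all genes. In KO1 and in KO2, 2 members met it (ADAM8 and TIMP2), against 4.93% and 5.48% of all genes. ADAM8, TIMP2 and ADAM19 were called in the same direction in all 3 comparisons. The clones KO1 and KO2 share their WT libraries, so that their values stand side by side and are not independent.

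**Figure D2:**
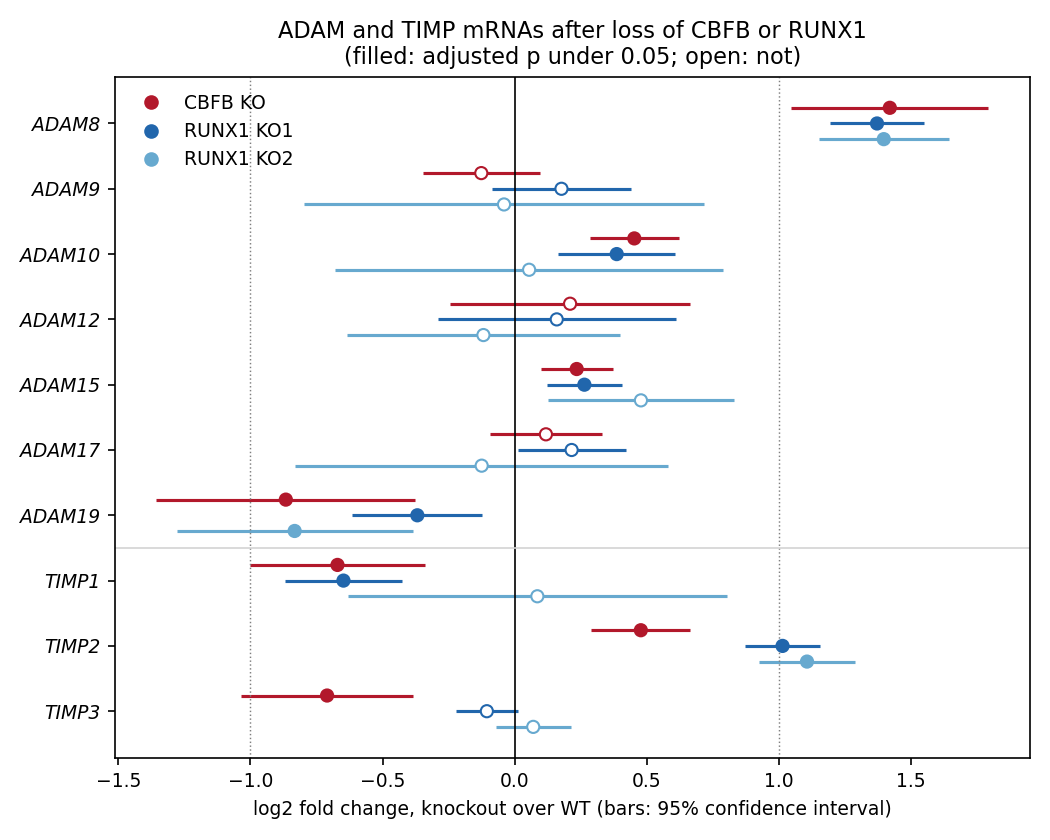
Log2 fold change of each member, knockout over WT, in CBFB KO, RUNX1 KO1 and RUNX1 KO2 (points) with the 95% confidence interval (bars). Filled points passed an adjusted p of 0.05 and dotted lines mark a fold change of 2. ADAM8 lies between 1.37 and 1.42 in all 3, and the KO2 interval of TIMP1 runs from -0.63 to 0.80.

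ADAM8, a protease of leukocytes and of some tumor cells that is induced by inflammatory signals, had the largest fold change of the 10 members in each comparison. Its level rose from 205 normalized counts in CBFB WT to 549 in CBFB KO, a fold of 2.68 (log2 1.42, SE 0.19, adjusted p = 4.54e-12 by DESeq2). In the RUNX1 experiment it rose from 320 to 829 in KO1 (log2 1.37, SE 0.09, adjusted p = 1.3e-48). In KO2 it rose from 303 to 799 (log2 1.40, SE 0.13, adjusted p = 1.36e-26). The response to loss of CBFB less that to loss of RUNX1 was 0.05 (interval -0.36 to 0.46) against KO1 and 0.02 (-0.42 to 0.47) against KO2. A difference beyond these intervals was thus not found. On the scale per kb, ADAM8 passed from the fifth place among the ADAMs in CBFB WT to the third place in CBFB KO, at 167 beside 163 for ADAM10, and whether that pair differs was not tested. This place depends on the transcript lengths used. In normalized counts not divided by length, ADAM8 in CBFB KO (549) stayed below ADAM10 (1861) and ADAM17 (774).

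ADAM10 and ADAM15 rose modestly. ADAM10 increased from 1360 to 1861 in CBFB KO (log2 0.45, SE 0.09, adjusted p = 3.24e-06 by DESeq2) and from 894 to 1168 in KO1 (log2 0.39, SE 0.11, adjusted p = 0.00249). The KO2 change was 0.05 with an SE of 0.37 and an interval from -0.68 to 0.79, which holds both no change and the changes of CBFB KO and KO1. ADAM15, an ADAM of epithelial and endothelial cell contacts, increased from 9013 to 10606 in CBFB KO (log2 0.23, SE 0.07, adjusted p = 0.00617). It increased from 10182 to 12226 in KO1 (log2 0.26, SE 0.07, adjusted p = 0.0013). In KO2 the estimate was larger at 0.48 (SE 0.18), yet it missed the threshold with an adjusted p of 0.0527. Of these 4 calls, 3 were lost once a trend with GC content and transcript length was taken out of the fold changes. ADAM10 was still called in CBFB KO (log2 0.55, adjusted p = 5.49e-09), whereas ADAM15 was no longer called in CBFB KO (log2 0.10, adjusted p = 0.328) or KO1 (log2 0.16, adjusted p = 0.0801), nor was ADAM10 in KO1 (log2 0.15, adjusted p = 0.296). ADAM15 shares 306 of its 6584 exonic bases with DCST1 on the same strand, whose mean was 24.5, 28.5 and 26.3 in the 3 tables.

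ADAM9, ADAM12 and ADAM17 were called in none of the comparisons. ADAM17, the TNF-converting enzyme, had log2 fold changes of 0.12 (SE 0.11), 0.22 (SE 0.10) and -0.12 (SE 0.36) in CBFB KO, KO1 and KO2, and its KO1 value had an adjusted p of 0.088. ADAM17 shares 1323 of its 10750 exonic bases with IAH1 on the opposite strand in the GENCODE 29 annotation. The mean of IAH1 was 869, 842 and 808 in the 3 tables, and the strand setting of the counting is not given in the sources used here, so that reads of this pair may not be separable. ADAM9, a widely expressed sheddase, had log2 fold changes of -0.13 (SE 0.11), 0.18 (SE 0.13) and -0.04 (SE 0.39). ADAM12, a protease of mesenchymal cells and placenta, was the lowest member with means of 70.2, 26.6 and 22.0 normalized counts. Its log2 fold changes were 0.21 (SE 0.23), 0.16 (SE 0.23) and -0.12 (SE 0.26). Fold changes of low genes are shrunk toward 0 in these tables, and those of other members with a large SE may be as well.

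ADAM19, which cuts neuregulins and takes part in heart development, was the one ADAM among the 7 members that fell. Its level decreased from 184 to 101 in CBFB KO (log2 -0.87, SE 0.25, adjusted p = 0.00482 by DESeq2). It decreased from 207 to 160 in KO1 (log2 -0.37, SE 0.13, adjusted p = 0.0111) and from 191 to 107 in KO2 (log2 -0.83, SE 0.23, adjusted p = 0.00316). The levels were 1.82-fold, 1.29-fold and 1.78-fold lower. The response in CBFB KO less that in KO1 was -0.50, with an interval from -1.05 to 0.05 and an adjusted p of 0.268 by the normal test of the difference, and less that in KO2 was -0.03 (-0.70 to 0.63). ADAM19 shares 62 exonic bases with CYFIP2 on the opposite strand. Of the ADAMs with a promoter window, ADAM19 was the one that held TGTGGT on either strand (as ACCACA), as did 13.1% of all windows. Any part of this motif in the fall was not tested.

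The inhibitors moved in different directions. TIMP2, which inhibits matrix metalloproteinases and also takes part in the activation of MMP2 by MMP14, rose in every knockout, from 897 to 1250 in CBFB KO (log2 0.48, SE 0.10, adjusted p = 1.33e-05 by DESeq2). It rose from 866 to 1749 in KO1 (log2 1.01, SE 0.07, adjusted p = 2.51e-43) and from 818 to 1762 in KO2 (log2 1.11, SE 0.09, adjusted p = 8.83e-30). The rise after loss of CBFB was smaller than after loss of RUNX1. The difference was -0.54 (SE 0.12, adjusted p = 4.90e-04) against KO1 and -0.63 (SE 0.13, adjusted p = 3.30e-04) against KO2, where each difference of fold changes was set against its combined SE (two-sided normal test, Benjamini-Hochberg adjustment over all genes). TIMP2 shares 198 exonic bases with CEP295NL on the same strand, whose mean was under 1 where it was listed. It also shares 367 exonic bases with AC022966.1 on the opposite strand, a gene not found in the tables by its symbol, so that reads of this stretch may not be separable.

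TIMP3, a matrix-bound inhibitor, fell in CBFB KO from 2467 to 1508 (log2 -0.71, SE 0.17, adjusted p = 2.88e-04 by DESeq2). Its level was 2001 and 1860 for KO1, a log2 change of -0.11 (SE 0.06) at an adjusted p of 0.161, and 1890 and 1984 for KO2, a log2 change of 0.07 (SE 0.07) at an adjusted p of 0.658. The intervals were -0.22 to 0.01 and -0.07 to 0.21, so that a decrease of the size seen in CBFB KO lay outside both. With the length and GC trend removed, the KO1 value was -0.14 with an adjusted p of 0.0488, which passes the threshold. The response in CBFB KO less that in each clone was -0.60 (SE 0.18, adjusted p = 0.0135) and -0.78 (SE 0.18, adjusted p = 0.00162) by the same test. TIMP2 and TIMP3 were the 2 members past the threshold of this test against either clone. The background of this test over all genes was 9.84% against KO1 and 2.90% against KO2. CBFB KO and the RUNX1 clones were compared with different WT samples, so that the deleted gene and the experiment cannot be told apart in this test. TIMP3 lies within SYN3 on the opposite strand with 0 shared exonic bases, and the mean of SYN3 was 2.1 to 3.5.

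TIMP1, a secreted inhibitor that is also induced by cytokines and growth factors, fell from 7411 to 4656 in CBFB KO (log2 -0.67, SE 0.17, adjusted p = 8.30e-04 by DESeq2). It fell from 5695 to 3634 in KO1 (log2 -0.65, SE 0.11, adjusted p = 9.07e-08). In KO2 the value was 0.09 (SE 0.37, adjusted p = 0.939), from 5464 to 5800, with an interval from -0.63 to 0.80. Its lower bound lies just short of the KO1 estimate. The response in CBFB KO less that in KO1 was -0.02 (-0.42 to 0.37), and less that in KO2 was -0.76 (-1.55 to 0.03, adjusted p = 0.588). TIMP1 lies within SYN1 on the opposite strand with 0 shared exonic bases, and the mean of SYN1 was 7.5 and 9.6 in the CBFB and KO1 tables.

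**Figure D3:**
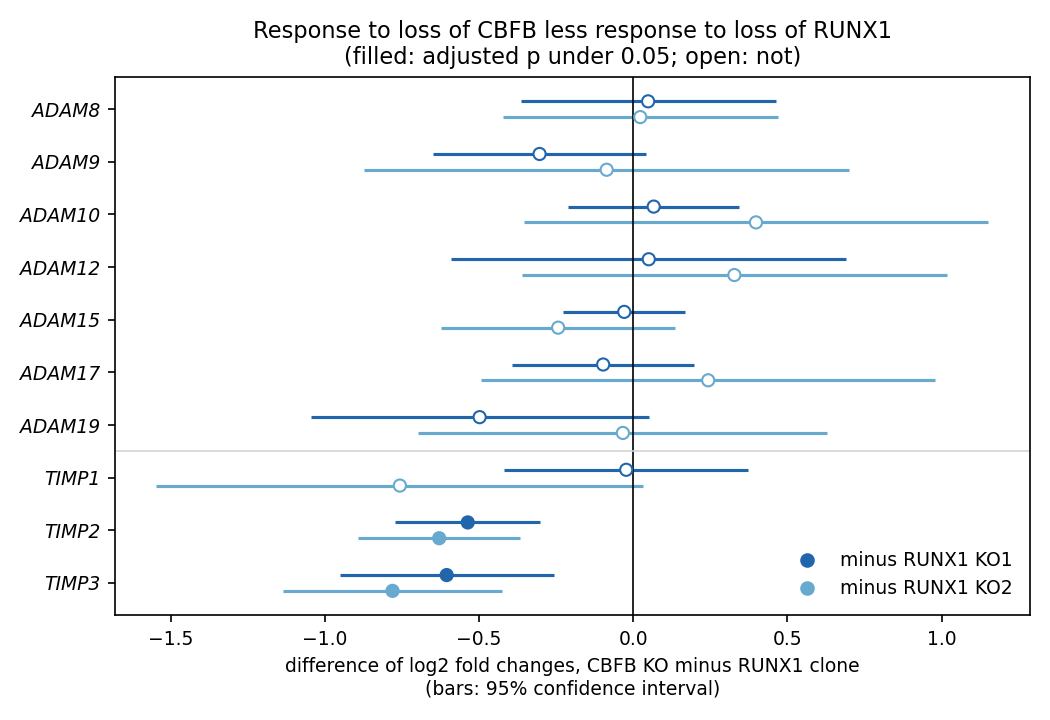
Log2 fold change in CBFB KO minus that in RUNX1 KO1 (dark) or RUNX1 KO2 (light) for each member, with the 95% confidence interval. Filled points, for TIMP2 (-0.54 and -0.63) and TIMP3 (-0.60 and -0.78), passed an adjusted p of 0.05.

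The order of TIMP2 and TIMP3 on the scale per kb was not the same in WT and knockout. TIMP2 stood below TIMP3 in the WT level of each table, at 246 beside 536, 237 beside 435 and 224 beside 411. In the knockout levels it stood above TIMP3, at 342 beside 328 in CBFB KO, 479 beside 404 in KO1 and 483 beside 431 in KO2. These gaps were not tested, since the tables hold no error for a level. They also depend on the transcript lengths used, 3652 bases for TIMP2 and 4603 for TIMP3. In normalized counts not divided by length, TIMP2 stayed below TIMP3 in each knockout. The levels were 1250 beside 1508 in CBFB KO, 1749 beside 1860 in KO1 and 1762 beside 1984 in KO2. The summed TIMP level per kb moved by -34.8%, -28.5% and 10.4% (CBFB KO, KO1 and KO2), a sum that is mostly TIMP1. The summed ADAM level per kb moved by 10.1%, 22.0% and 29.7%, a sum that is mostly ADAM15 and ADAM9. No error could be given for these sums.

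The precision in KO2 was uneven among the members. Over genes whose mean reached 100, the SE of the log2 fold change had a median of 0.12 for CBFB KO, 0.10 for KO1 and 0.21 for KO2. It exceeded 0.3 for 0%, 0.028% and 21.1% of these genes in the same order. Of the 9 members that reached this mean in KO2, 4 were among them: ADAM9, ADAM10, ADAM17 and TIMP1. Their SE was 2.86, 3.32, 3.45 and 3.26 times that in KO1, whereas the ratio was 1.20 for TIMP3, 1.31 for TIMP2 and 1.37 for ADAM8. Across the 10174 genes that reached this mean in both RUNX1 tables, the median ratio was 2.01 (quartiles 1.43 and 2.63). Both tables use the same WT libraries: the WT level from the KO2 table was 0.943 times that from the KO1 table, with an SD of 0.034 (log2) over these genes. The calls of ADAM10 and TIMP1 in KO1 and not in KO2 are therefore not shown to be a difference between clones. The SE of shrunken fold changes appears to have a different upper limit in each table. IL1R2, with a mean of 13.1 for CBFB KO, had an SE of 0.29. ADAMTS17 had 0.31 in KO1 (mean 5.41) and TNF had 0.41 in KO2 (mean 3.85). The shares over 0.3 therefore do not compare precision between the tables.

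**Figure D4:**
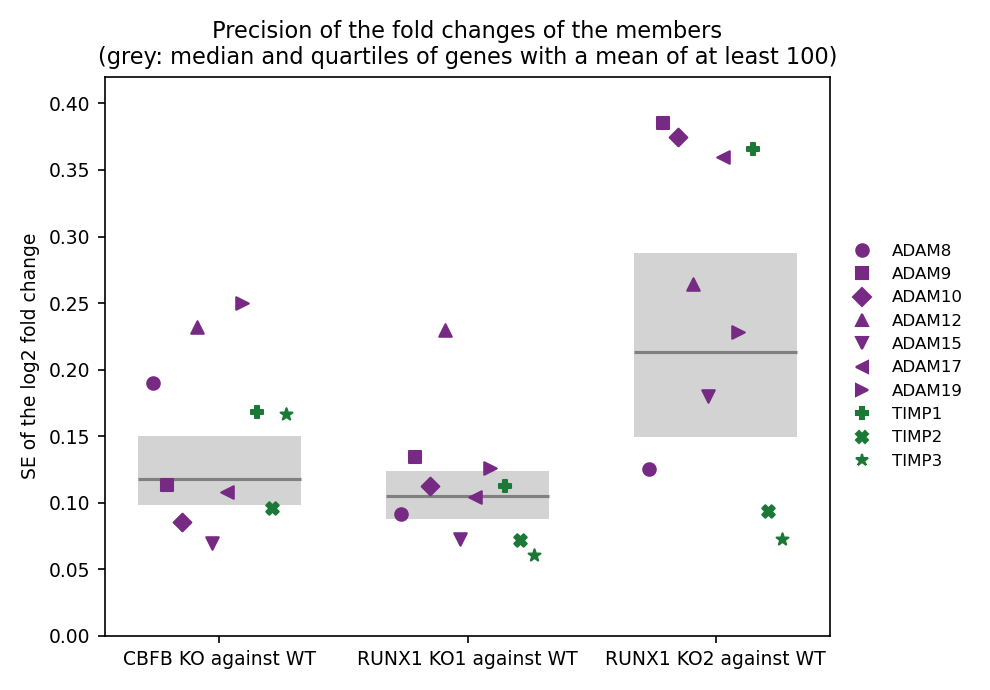
SE of the log2 fold change of each member in the 3 tables (symbols, purple for ADAMs and green for TIMPs), over the median (line) and quartiles (grey box) of genes whose mean reached 100. In the KO2 table ADAM9, ADAM10, ADAM17 and TIMP1 lie above 0.3, and ADAM8, TIMP2 and TIMP3 lie below the lower quartile.

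ADAM proteins depend on other proteins to mature and reach the surface, and 14 genes that act on these steps or on the enzymes were tested in each table. They comprise proprotein convertases such as FURIN that cut off the inhibitory prodomain, the TspanC8 tetraspanins that escort ADAM10, the iRhoms (RHBDF1 and RHBDF2) with FRMD8 that escort ADAM17, and RECK, which is no helper but a membrane-anchored inhibitor of metalloproteases. Of these, 6 rose after loss of CBFB, 11 in KO1 and 6 in KO2, while 0 fell by DESeq2's adjusted p. At an unadjusted p under 0.05, 6, 12 and 8 were higher and 0 were lower. Over all genes, 11.7%, 19.7% and 8.76% were called higher in CBFB KO, KO1 and KO2, and of genes whose mean reached 100, 22.7%, 48.9% and 15.1% were called in either direction. The 11 in KO1 include RECK, at 0.46 (SE 0.17). The median log2 fold change was 0.32, 0.52 and 0.48, and these values stand beside medians near 0 over all genes. The genes called in all 3 comparisons were 3 TspanC8 tetraspanins and FURIN. TSPAN14 rose by 0.81 (SE 0.08), 0.84 (SE 0.07) and 0.64 (SE 0.17) in CBFB KO, KO1 and KO2. FURIN rose by 0.65 (SE 0.12), 0.70 (SE 0.06) and 0.48 (SE 0.15). TSPAN15 rose by 0.91 (SE 0.18), 0.44 (SE 0.13) and 0.87 (SE 0.18), and TSPAN17 by 0.53 (SE 0.11), 0.43 (SE 0.09) and 0.53 (SE 0.19). RHBDF2 was higher in CBFB KO and KO1, at 0.63 (SE 0.14) and 0.72 (SE 0.11), and was 0.49 (SE 0.20, adjusted p = 0.0834) in KO2. It was named after its values were seen, as the escort of ADAM17, whose own mRNA was not called.

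**Figure D5:**
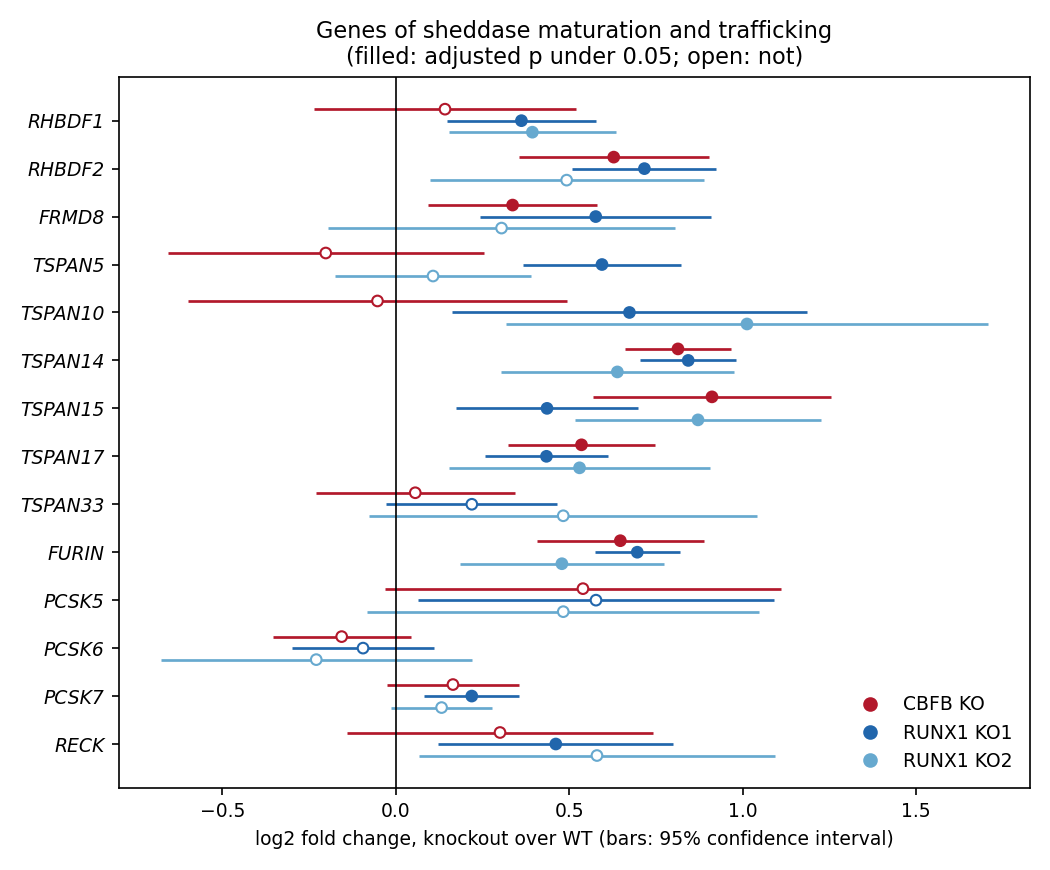
Log2 fold change of 14 genes of sheddase maturation and trafficking, knockout over WT, in CBFB KO, RUNX1 KO1 and RUNX1 KO2 (points) with the 95% confidence interval (bars). Filled points passed an adjusted p of 0.05, and every filled point lies above 0.

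Of 33 known substrates of ADAM shedding, 30 were tested in CBFB KO, with 11 higher and 2 lower. In KO1 21 of 32 rose and 2 fell, and in KO2 12 of 32 rose and 1 fell. These counts are read against 11.7%, 19.7% and 8.76% of all genes called higher and 7.97%, 19.9% and 6.08% called lower, with no test. The medians were 0.35, 0.48 and 0.38. The 4 named by rank were ICAM1, NOTCH3, EREG and AXL. ICAM1, an adhesion molecule for leukocytes, rose 2.83-fold, 2.92-fold and 2.97-fold (SE 0.20, 0.11 and 0.13 on the log2 scale) in CBFB KO, KO1 and KO2. On the log2 scale, EREG, an EGF receptor ligand released by ADAM17, rose by 1.40 (SE 0.14), 1.88 (SE 0.17) and 1.31 (SE 0.34). NOTCH3, a receptor cut by ADAM10, rose by 1.35 (SE 0.24), 2.51 (SE 0.13) and 2.16 (SE 0.26). AXL, a receptor kinase whose outer part is shed by ADAM10 and ADAM17, fell by 0.85 (SE 0.15), 1.40 (SE 0.09) and 1.75 (SE 0.12). The other substrates that fell were EPGN, an EGF receptor ligand, at -0.53 (SE 0.11) in CBFB KO, and PROCR, the endothelial protein C receptor, at -0.26 (SE 0.10) in KO1.

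The matrix metalloproteinases, the main targets of TIMPs, had 5 genes higher and 1 lower of 9 tested in CBFB KO, 5 and 1 of 13 in KO1, and 4 and 0 of 10 in KO2 (5 and 0 at an unadjusted p under 0.05), with medians of 0.52, 0.33 and 0.46. The share of all genes called, higher and lower, was 11.7% and 7.97% for CBFB KO. It was 19.7% and 19.9% for KO1, and 8.76% and 6.08% for KO2. In KO1 the 5 of 13 MMPs called higher lie above the share of 19.7%. The 1 of 13 called lower lies below the share of 19.9%, and neither count was tested. MMP2, a gelatinase, rose by 0.75 (SE 0.26), 0.79 (SE 0.18) and 0.89 (SE 0.21). MMP15, a membrane-type member, rose by 0.52 (SE 0.19), 0.48 (SE 0.11) and 0.80 (SE 0.21). MMP14, the membrane-type activator of MMP2, rose by 0.88 (SE 0.13) in CBFB KO and 0.57 (SE 0.11) in KO1, and MMP25 by 0.91 (SE 0.25) in CBFB KO and 1.19 (SE 0.24) in KO2. MMP9, a gelatinase bound by TIMP1, rose by 4.92 (SE 0.18) in KO1 and 4.46 (SE 0.30) in KO2 and was not listed in the CBFB table. MMP19 rose by 0.92 (SE 0.27) in CBFB KO and MMP17 by 0.51 (SE 0.10) in KO1. MMP28 was the one that fell, by 0.93 (SE 0.25) in CBFB KO and 0.65 (SE 0.13) in KO1. Of the ADAMTS proteases, the secreted relatives of the ADAMs, 12 were tested in each table. In CBFB KO and in KO1 1 rose and 1 fell, and in KO2 1 rose and 2 fell, with medians of -0.23, 0.13 and 0.22. Against the same shares of all genes, the ADAMTS count lies near the background in CBFB KO and below it in KO1. ADAMTS15 rose in each, by 1.12 (SE 0.24), 1.33 (SE 0.17) and 0.70 (SE 0.22). ADAMTS7 was lower in CBFB KO at -0.68 (SE 0.23), ADAMTS6 in KO1 at -1.35 (SE 0.24) and KO2 at -1.87 (SE 0.31), and ADAMTS1 in KO2 at -0.89 (SE 0.25). Few of the 11 other ADAM and TIMP genes were expressed enough to test. After loss of CBFB 0 of 3 rose and 1 fell, in KO1 1 of 4 rose and 1 fell, and in KO2 1 of 3 rose and 0 fell, with 0 and 1 higher and lower, 1 and 1, and 1 and 1 at an unadjusted p under 0.05. The gene that fell was ADAM21, a testis-enriched relative, at -0.95 (SE 0.28) in CBFB KO and -1.08 (SE 0.25) in KO1. The gene that rose was ADAM23, a member without protease activity, at 0.91 (SE 0.24) in KO1 and 0.93 (SE 0.26) in KO2. Outside the rule for names stand RECK, EPGN, PROCR, the MMPs other than MMP2 and MMP15, the ADAMTS genes other than ADAMTS15, ADAM21 and ADAM23, which were chosen after their values were seen because they make up small counts or, for RECK, because its role differs from its list. HBEGF, one of the shed substrates, rose by 1.64 (SE 0.10) in KO1 and 1.51 (SE 0.15) in KO2. It also stands outside the rule and was named after its values were seen, because it was not listed for CBFB KO.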

How the data were processed

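RNA-seq of MCF10A cells was deposited by the authors as 3 tables of knockout against WT, and groups were taken from the sample labels. Per the labels, reads were trimmed with Trimmomatic, aligned with STAR to hg19 and tested with DESeq2, as the submitters' processing notes list without versions, and the counter and annotation are not given in the sources used here. The labels name a poly-A kit and the study's methods an rRNA removal, and which applies is not known. The deposited columns hold the authors' comparisons and were used because nothing else was given: the mean of normalized counts (treated as a signal), the deposited log2 fold change and SE, the deposited test score and the deposited p-values with their Benjamini-Hochberg adjustment. The tables hold 0 columns per library and depth per library is unknown, so that no SD, replicate check or paired fit was made.

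WT and knockout levels were computed from the mean and fold change, assuming equal group sizes, and divided by the length of the longest GENCODE 29 transcript. The response to loss of CBFB was set against that of each RUNX1 clone with a two-sided normal test, adjusted over all genes tested in both. Python 3.11.15, numpy 2.4.6, pandas 2.3.3, scipy 1.17.1, statsmodels 0.14.6 and matplotlib 3.10.9 were used. The difference test and the trend removal were also run on simulated fold changes drawn with the deposited SEs. Such a run cannot show whether those SEs are right. Genes under a mean of 3.37, 0.748 and 1.03 had no adjusted p in the CBFB, KO1 and KO2 tables. Alternatives were other fold-change thresholds, centring, removal of a length and GC trend and other filters. From each further list, at most 4 genes called in one direction in all 3 tables were named, ranked by their smallest fold change. The members and lists were chosen with earlier results of these data known. Promoter and coordinate values use GRCh38.p14 and no hg19 coordinate was used.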

Additional observations from a re-analysis of the deposited data

Results flagged for a closer look

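The response of TIMP2 and of TIMP3 differed between CBFB KO and the RUNX1 clones by a test of the difference itself. CBFB KO and the clones were compared with different WT samples, so that the deleted gene and the experiment cannot be told apart. For TIMP2, CBFB KO minus KO1 was -0.54 and CBFB KO minus KO2 was -0.63 (log2), where the knockouts rose by 0.48, 1.01 and 1.11. For TIMP3, the differences were -0.60 and -0.78, where CBFB KO fell by 0.71 and the clones stood at -0.11 and 0.07. The adjusted p-values, from a two-sided normal test, were 4.90e-04, 3.30e-04, 0.0135 and 0.00162 in that order. KO1 and KO2 share WT libraries, so that the differences of a gene from both clones are not independent.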

How the results depend on the processing

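Single-gene results were recomputed in 275 combinations of result and setting, of which 245 kept direction and side of the threshold, and 186 of 195 did so without the fold-change settings. With a fold change of at least 2, the members called were 1 in CBFB KO and 2 in KO1 (7 and 6 without it), and with at least 1.5 they were 4 and 3. With a difference of at least 1, 0 members differed between CBFB KO and either clone, against 2 for each without it. With the length and GC trend removed, the direction turned for ADAM12 in KO1 (-0.0008), ADAM9 in KO2 (0.07), TIMP1 in KO2 (-0.07), and the CBFB KO minus KO1 difference of ADAM8 (-0.05) and ADAM17 (0.08), none of which was called. The calls that this setting ended or made stand in the report beside ADAM10, ADAM15 and TIMP3, and the cause was not tested. Centring and the filters on low values changed no call or direction.

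No paired analysis was possible because the tables hold no value per library, and for the same reason leaving out replicates was not run. Depth per library is unknown. The SE of the KO2 table (0.36 to 0.39) limits statements on ADAM9, ADAM10, ADAM17 and TIMP1. Low members such as ADAM12 carry shrunken fold changes, and other members with a large SE may as well. The shrinkage may differ between tables, and the test of the difference does not correct for it. Levels derived from the tables have no error.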
